A study of Mus musculus with 12 samples.

Results

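*Fam107a* and *Gm19439* were close to absent from the liver of control mice, *Sult1e1* was low there, with up to 19 counts in 1 mouse, and all 3 genes were higher after dexamethasone (Dex), a synthetic glucocorticoid. They make up 3 of the 54838 genes in the deposited table of raw read counts. They were chosen by name because of their counts in the control mice and in the Dex-treated mice of this table, with no fixed threshold. Their low level without Dex, their high level with it and the size of that step are therefore given as a description and carry no test. Their choice did not rest on the behaviour of the genes next to them or on that of other genes of the same pathways. The effect of zinc in the Dex-treated mice was not itself a reason for the choice. High counts after Dex were, with no Dex group singled out, so the test of that effect is not fully independent of the choice. The pathway lists were chosen with earlier results of these data known, so the list counts are not independent of those results.

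The livers came from C57BL/6J mice of 8 to 14 weeks of age, the range given for all animals. Their drinking water was plain or held 25 mM ZnSO4 during 7 days. They then received 200 µg Dex or PBS, the vehicle, and the liver was taken 2 h later. The 4 groups of 3 mice each are called water-PBS (the controls), zinc-PBS, water-Dex and zinc-Dex. The labels name no mutation or transgene. Each of the 12 libraries is the liver RNA of 1 mouse. The DESeq2 and edgeR p-values below rest on the spread between mice within groups of 3, estimated jointly over the groups. A wide spread in 1 group thus enters the other comparisons too.

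Glucocorticoids diffuse into cells and bind the glucocorticoid receptor, a transcription factor encoded by *Nr3c1*. The receptor then moves to the nucleus, where it binds DNA at glucocorticoid response elements, often as a dimer on 2 half-sites that face each other, and raises or lowers transcription. The liver is a main target organ, in which glucocorticoids raise genes of gluconeogenesis and of amino acid breakdown. *Fam107a* encodes a protein that binds actin filaments and is best known as a stress- and glucocorticoid-responsive gene of the brain. *Sult1e1* encodes the oestrogen sulphotransferase, a cytosolic enzyme that moves a sulphate group onto oestrogens and so makes them unable to activate the oestrogen receptor. *Gm19439* has no assigned function.

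The members lie on different chromosomes, and none of them overlaps another annotated gene. On GRCm38 with GENCODE M21, *Fam107a* (ENSMUSG00000021750) is a protein-coding gene on the minus strand at chr14:8296274-8318023. *Sult1e1* (ENSMUSG00000029272) is a protein-coding gene on the minus strand at chr5:87575969-87591594. *Gm19439* (ENSMUSG00000105843) lies on the plus strand at chr3:88030878-88033150 and consists of a single exon of 2273 bases. GENCODE lists it as TEC, a class for transcripts that await experimental evidence. Its longest open reading frame on the transcribed strand, from a start codon to a stop codon, holds 96 codons, and 50.8% of its bases are G or C.

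The sequence just before a gene's start is shown because the receptor's half-site, AGAACA or TGTTCT on the other strand, can be searched there. RefSeq promoter windows on GRCm38.p6, each of 250 bases before and 50 bases after a start, matched 2 of the 3 members. *Fam107a* has windows at 3 annotated starts and *Sult1e1* has 1 window. The *Fam107a* start at position 8309779, inside the gene, has 2 half-sites in its window. They begin 158 and 110 bases before that start, at chr14:8309932-8309937 and chr14:8309884-8309889. The start at position 8309777 has the same 2 half-sites in its window, and the window of the outermost start, at position 8317607, has 0. The *Sult1e1* window has 0 as well. In the lines below the half-sites are in capitals, and the letters stop before the nearest annotated exon.
Fam107a promoter, minus strand, chr14:8309796-8310029: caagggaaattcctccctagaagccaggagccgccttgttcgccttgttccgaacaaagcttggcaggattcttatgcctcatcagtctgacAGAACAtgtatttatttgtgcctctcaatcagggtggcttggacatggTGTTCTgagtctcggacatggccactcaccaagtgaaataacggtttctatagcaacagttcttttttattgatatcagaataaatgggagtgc
Sult1e1 promoter, minus strand, chr5:87591612-87591861: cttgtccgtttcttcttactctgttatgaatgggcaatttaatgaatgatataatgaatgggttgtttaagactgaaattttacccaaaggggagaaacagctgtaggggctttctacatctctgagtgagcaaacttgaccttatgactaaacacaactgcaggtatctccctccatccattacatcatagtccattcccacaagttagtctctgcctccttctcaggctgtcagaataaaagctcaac
Gm19439 transcript, first 150 bases, plus strand, chr3:88030878-88031027: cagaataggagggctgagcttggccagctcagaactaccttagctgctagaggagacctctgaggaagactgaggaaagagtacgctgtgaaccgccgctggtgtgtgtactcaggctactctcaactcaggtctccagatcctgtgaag

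Of 32851 RefSeq windows of this length, from 27025 genes, 19.0% hold at least 1 half-site and 2.54% hold 2 or more. The full element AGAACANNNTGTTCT reads the same on both strands, and its 12 fixed bases contain both half-sites. The nearest match to it in the inner *Fam107a* window is TGGACATGGTGTTCT at chr14:8309884-8309898, with 2 mismatches, and it overlaps the half-site at 8309884. A match with at most 2 mismatches is present in 1.84% of all windows. These shares are per window, and *Fam107a* has 3 windows. The nearest match in the window of its outermost start has 5 mismatches, and 57.0% of all windows have a match with at most 4. The nearest match in the *Sult1e1* window has 3 mismatches, and 14.5% of all windows have a match with at most 3. Only the start of the transcript is shown for *Gm19439*, and its 2273 bases hold 3 half-sites, which begin at bases 750, 1091 and 1867. Half-sites in other transcripts were not counted. Whether the receptor binds at any of these letters was not measured in these libraries. Counts per gene do not tell from which of its starts *Fam107a* was transcribed.

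Total counts per library lay between 9091152 and 12303527, and 26191 genes had a count in at least 1 library. The levels below are raw counts divided by the DESeq2 size factor of the library, called normalized counts, and 3 counts per library are taken as the floor of detection. All 6 hepatocyte markers were above the floor in each group, with summed levels of 1161000 to 1376000 normalized counts in water-PBS and 1518000 to 1614000 in water-Dex. The corresponding sums were 1219000 to 1375000 in zinc-PBS and 1552000 to 1653000 in zinc-Dex. *Alb* made up most of each sum, with means of 1060000 in water-PBS, 1305000 in water-Dex, 1075000 in zinc-PBS and 1315000 in zinc-Dex. *Fabp1* had a lower mean after Dex, from 37380 to 36460 on plain water and from 32200 to 28560 on zinc. The other markers had higher means after Dex. The part of the higher sums after Dex in the members' levels was not tested. Fewer cells of a type and less RNA per cell cannot be told apart in such bulk samples.

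*Gm19439* was not detected in the controls. It had 0 counts in each of the 3 water-PBS libraries and 0, 1 and 1 counts in the 3 zinc-PBS libraries. Mice on plain water had 214, 154 and 205 counts after Dex, and mice on zinc had 199, 168 and 217. Every Dex-treated mouse was thus above every PBS-treated mouse, and the 2 Dex groups overlapped. The normalized count was 195 ± 27.7 (SD, n = 3) in water-Dex and 204 ± 15.3 in zinc-Dex. Against the floor of 3 counts per library, water-Dex was at least 63.6-fold higher than water-PBS. In the zinc-treated mice 584 counts stood against 2, a ratio of 342 with an exact 95% counting interval of 94.4 to 2835, which covers counting error only.

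*Fam107a* had 2, 2 and 1 counts in water-PBS and 5, 3 and 3 counts in zinc-PBS. After Dex it had 806, 644 and 912 counts in mice on plain water and 713, 677 and 776 in mice on zinc. The normalized count was 1.67 ± 0.517 in water-PBS and 3.28 ± 1.07 in zinc-PBS, and it was 802 ± 110 in water-Dex and 757 ± 15.03 in zinc-Dex (SD, n = 3 each). The 2362 counts of water-Dex stood against 5 of water-PBS, a ratio of 476 with a counting interval of 204 to 1469. In the zinc-treated mice the ratio was 231, from 2166 counts against 11, with an interval of 129 to 463. *Fam107a* is known from the brain, so 6 markers of astrocytes and neurons were summed. Their sum was at 222 to 304 normalized counts in water-PBS, 247 to 314 in zinc-PBS, 244 to 270 in water-Dex and 311 to 370 in zinc-Dex, with 4 or 5 of its 6 genes above the floor and *Snap25* at 0 in every library. *Syt1* carried most of the sum, with means of 215.2, 251.5, 220.1 and 291.5 in the same order. No other gene of this list had a group mean above 34.91.

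*Sult1e1* was not silent in the controls, and its description as near-silent holds for it only in part. It had 3, 19 and 3 counts in water-PBS, so that replicate 2 was above the floor. It had 7, 11 and 4 counts in zinc-PBS. After Dex it had 61, 64 and 53 counts on plain water and 425, 71 and 160 counts on zinc, so that every Dex-treated mouse was again above every PBS-treated one. The normalized count was 7.91 ± 8.12 in water-PBS and 6.52 ± 3.002 in zinc-PBS, and it was 60.8 ± 7.87 in water-Dex and 231 ± 203 in zinc-Dex. Its fitted log2 difference between water-Dex and water-PBS was 2.92 over all libraries and 4.24 without water-PBS replicate 2. Adipose tissue is another known site of *Sult1e1*. The summed level of 6 adipocyte markers was 8.19 to 14.7 normalized counts in water-PBS, 12.7 to 14.4 in zinc-PBS, 15.2 to 24.5 in water-Dex and 21.7 to 26.7 in zinc-Dex. *Retn*, *Lep* and *Adig* were at 0 in every library, *Adipoq* and *Plin1* had at most 1 count, and *Cidec*, a lipid droplet gene also expressed by hepatocytes, was the single marker above the floor. The part of this list in the *Sult1e1* result was not tested.

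**Figure D1:**
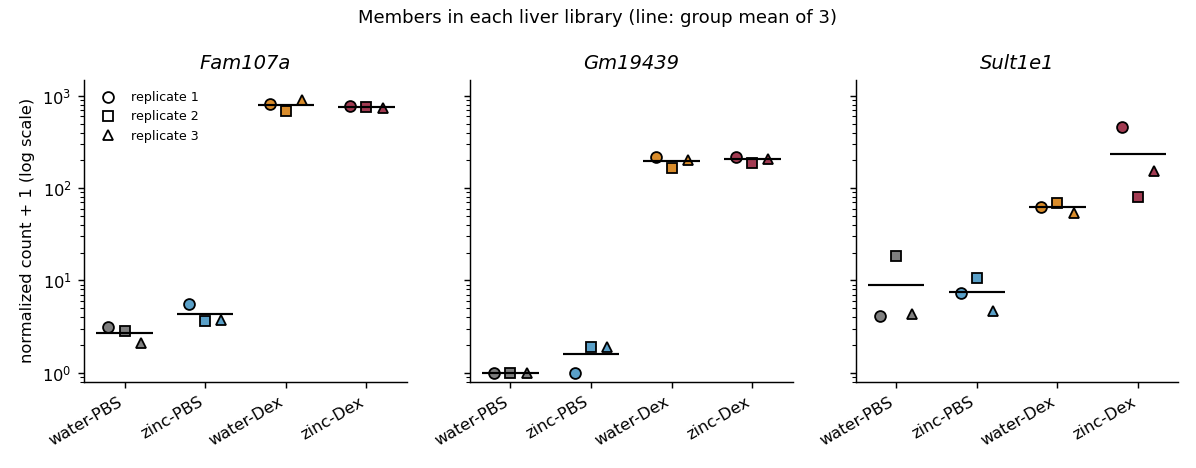
Normalized count plus 1, on a log scale, of each member in each of the 12 liver libraries, with the 4 groups along the x axis and a line at the mean of each group of 3. *Fam107a* and *Gm19439* sit at or near the bottom in all 6 PBS libraries and in a narrow band in all 6 Dex libraries, while *Sult1e1* is spread out in zinc-Dex, from 78.9 to 462.

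All 3 members passed the threshold, an adjusted p under 0.05 and an absolute log2 difference above 0.8 in DESeq2, in both Dex comparisons. Their choice rested on these contrasts and nothing is read from that count. Between water-Dex and water-PBS, 9.68% of the genes tested were called, 4.89% higher and 4.79% lower. Between zinc-Dex and zinc-PBS the share was 9.68% too, with 5.0% higher and 4.68% lower. Those comparisons have no control sample in common.

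Levels of different genes were compared per kilobase of exon. In water-Dex *Fam107a* was at 207 normalized counts per kilobase, *Gm19439* at 85.6 and *Sult1e1* at 49.0. In zinc-Dex the means were 196 for *Fam107a*, 186 for *Sult1e1* and 89.7 for *Gm19439*. The *Sult1e1* mean there was carried by replicate 1, and it was 93.7 without that mouse. Per mouse, *Sult1e1* was at 372, 63.5 and 124 per kilobase in zinc-Dex and *Gm19439* at 95.1, 82.1 and 91.8. *Sult1e1* was thus above *Gm19439* in replicates 1 and 3 and below it in replicate 2, as in every water-Dex mouse. The normalized count of *Gm19439* was between 22.5% and 26.6% of that of *Fam107a* in the 3 water-Dex mice and between 24.8% and 28.0% in the 3 zinc-Dex mice. *Sult1e1* was at 7.57%, 9.94% and 5.81% of *Fam107a* in the water-Dex mice and at 59.6%, 10.5% and 20.6% in the zinc-Dex mice. The highest *Sult1e1* share in water-Dex, 9.94%, was just under the lowest in zinc-Dex, 10.5% in replicate 2. How often other genes separate these groups was not counted.

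The spread between mice also set *Sult1e1* apart in zinc-Dex. The SD of its log2 normalized count was 1.28 there, against a median of 0.116 over the 4139 genes within 2-fold of its level, and 99.95% of these had a lower SD. In water-Dex its SD was 0.187, and 52.4% of the 3195 genes within 2-fold of its level had a lower one. *Fam107a* varied little in zinc-Dex, where its SD was 0.0285 and 7.31% of 2751 genes of like level had a lower one. In water-Dex the SD of *Fam107a* was 0.201, and 93.5% of 2703 genes had a lower one. The SD of *Gm19439* was 0.212 in water-Dex and 0.110 in zinc-Dex.

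Whether zinc changed the level that the members reached under Dex was tested between zinc-Dex and water-Dex. High counts after Dex were a reason for their choice, so this test is not fully independent of it. None of the 3 members was called with DESeq2 or with the quasi-likelihood test of edgeR. DESeq2 called 0.469% of the genes tested in this comparison. *Fam107a* differed by a log2 of -0.08 (SE 0.127, 95% interval -0.33 to 0.17, DESeq2 adjusted p 0.937). *Gm19439* differed by a log2 of 0.07 (SE 0.175, 95% interval -0.28 to 0.41, DESeq2 adjusted p 0.969). For both genes the groups overlapped, and the sign of the difference changed when water-Dex replicate 3 was left out for *Fam107a* (0.01) or water-Dex replicate 2 for *Gm19439* (-0.04).

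*Sult1e1* was higher in each zinc-Dex mouse, at 462, 78.9 and 154 normalized counts, than in any water-Dex mouse, at 61.9, 68.1 and 52.4. The log2 difference was 1.93 (SE 0.755, 95% interval 0.45 to 3.41, DESeq2 p 0.0107), and it missed the threshold after adjustment over all genes (DESeq2 adjusted p 0.245, edgeR adjusted p 0.123). The exact two-sided permutation test over the mice gave p = 0.1, which is the smallest value that 3 mice against 3 allow. The difference rested on zinc-Dex replicate 1 for much of its size. Without that mouse the log2 difference was 0.94 (DESeq2 adjusted p 0.587), and without zinc-Dex replicate 2 it was 2.34 (DESeq2 adjusted p 0.0556). In the range of 18 alternative fits the log2 difference lay between 0.94 and 2.34, and 0 of the 17 fits with an adjusted p called it.

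**Figure D2:**
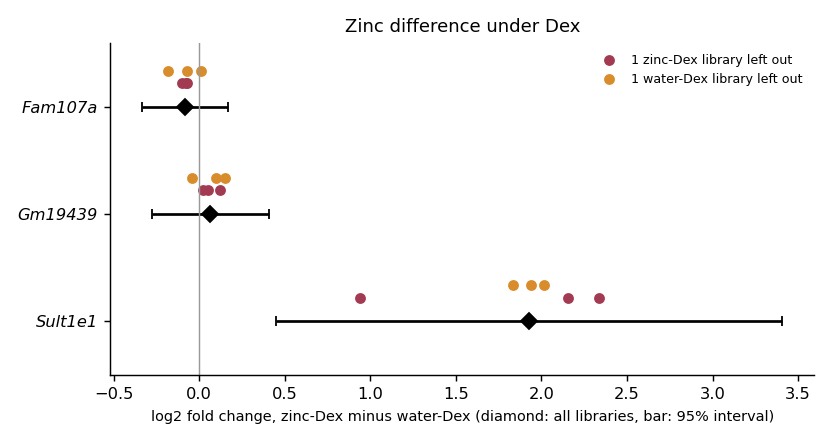
Log2 difference of each member between zinc-Dex and water-Dex, with all libraries (diamond, bar for the 95% interval of DESeq2) and with each Dex library left out in turn (dots). *Fam107a* and *Gm19439* sit near 0, while *Sult1e1* lies at 1.93 and drops to 0.94 when zinc-Dex replicate 1 is left out.

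The levels in the PBS-treated mice are given as a description, since the members were chosen for low counts in water-PBS, one side of that comparison, in which DESeq2 called 0.138% of the genes tested. *Fam107a* was at 2.10, 1.82 and 1.10 normalized counts in water-PBS and at 4.51, 2.62 and 2.72 in zinc-PBS, from counts of 5 or fewer per library. *Sult1e1* was at 3.15, 17.3 and 3.29 in water-PBS and at 6.32, 9.62 and 3.62 in zinc-PBS, so that the groups overlapped. Its fitted log2 difference of -0.30 turned to 1.02 without water-PBS replicate 2. *Gm19439* was at the floor in both PBS groups, so no difference could be detected at this depth.

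Few genes shared the pattern of the members. Of the genes with a count in any library, 10450 were at the floor in each water-PBS library. Of these, 3 reached a mean of at least 50 normalized counts in both Dex groups. Besides *Fam107a* and *Gm19439* this was *Gm48199* (ENSMUSG00000113399), a long intergenic non-coding RNA with no assigned function. *Gm48199* was at 3.15, 1.82 and 1.10 normalized counts in water-PBS and 0.903, 2.62 and 0 in zinc-PBS. After Dex it was at 46.7, 61.7 and 60.4 on plain water and at 83.6, 72.2 and 54.8 on zinc. In the opposite direction, 0 genes were at the floor in each water-Dex library with a mean of at least 50 in both PBS groups.

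The genes whose levels over the 12 libraries were most like those of a member were found among the 9571 genes whose mean normalized count was 50 or more, by Pearson's r of log2 normalized counts. All of these genes share the step between the 6 PBS and the 6 Dex libraries, so the values describe that common step. *Bcl2l1*, which encodes an inhibitor of apoptosis, was the first for both *Fam107a* (r = 0.9988) and *Gm19439* (r = 0.9956), with means of 274 in water-PBS, 310 in zinc-PBS, 2572 in water-Dex and 2585 in zinc-Dex. The next for *Fam107a* were *Fam117b*, *Serinc3*, *Setdb2* and *Plin4*, which encodes a lipid droplet coat protein. *Plin4* had a low control level too, with a mean of 20.98 in water-PBS and 441 in water-Dex. The next for *Gm19439* were *Npm3*, *Fam117b*, *Gpat4*, an enzyme of triglyceride synthesis, and *Gde1*.

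For *Sult1e1* the most similar genes were *Zfp385b* (r = 0.969), *Ccni*, *Cdo1*, an enzyme of cysteine breakdown, *Dlat*, a subunit of pyruvate dehydrogenase, and *Cyp26a1* (r = 0.955), which breaks down retinoic acid. *Cyp26a1* was at 116, 160 and 85.7 normalized counts in water-PBS and at 268, 244 and 290 in water-Dex. In zinc-Dex it was at 746, 246 and 397, so that replicate 1 was the highest and replicate 2 the lowest, as for *Sult1e1*. None of the similar genes of *Sult1e1* was among those of the other members.

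The receptor's known targets show how far the members' step was shared. Of 18 genes of a list of known glucocorticoid targets, 16 were higher in water-Dex than in water-PBS and 16 were higher in zinc-Dex than in zinc-PBS, with 0 lower in either. Of all genes tested, 4.89% and 5.0% were higher. The median log2 difference of the list was 2.39 and 2.37, against -0.01 over all genes tested in each. *Mt2*, a metallothionein that binds zinc, rose by a log2 of 6.42 on plain water and 1.73 on zinc. Its antisense neighbour *Gm45774* overlaps it, and the strand setting of the counting is not given in the sources used here. *Ddit4*, an inhibitor of mTOR signalling, rose by 5.11 and 5.67, and *Cdkn1a*, the cell cycle inhibitor p21, by 4.83 and 4.92. *Lcn2*, which encodes an iron-scavenging acute-phase protein, rose by 4.51 and 3.89. *Igfbp1*, a binding protein of insulin-like growth factors, rose by 3.58 and 4.83, and *Fkbp5*, a co-chaperone that dampens the receptor, by 3.12 and 2.74. These 6 genes had between 27.8 and 977 normalized counts on average in water-PBS. *Zbtb16*, a zinc-finger repressor, was called on plain water (log2 1.80, DESeq2 adjusted p 0.0173, in 13 of 18 alternative fits) and had a log2 difference of 1.22 on zinc (DESeq2 adjusted p 0.149). *Angptl4*, an inhibitor of lipoprotein lipase, was called on zinc (log2 1.64, DESeq2 adjusted p 0.0044) and had a log2 difference of 1.16 on plain water (DESeq2 adjusted p 0.062). The interaction of zinc and Dex was called for neither of them. *Klf9* was not called in either comparison, with log2 differences of 0.55 and 0.42.

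**Figure D3:**
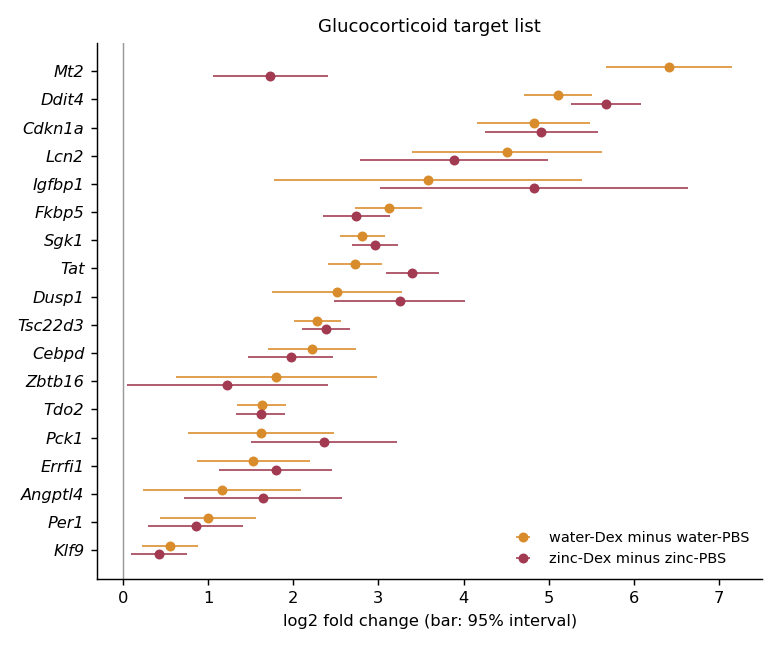
Log2 difference of the 18 listed glucocorticoid targets after Dex, in mice on plain water and in mice on zinc, with bars for the 95% interval. All points lie above 0, and *Mt2* is the gene whose intervals for the 2 drinking waters are farthest apart, at 6.42 and 1.73.

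The receptor gene *Nr3c1* was at a mean of 1242 normalized counts in water-PBS and 1005 in water-Dex. Its log2 differences were -0.31 on plain water (DESeq2 adjusted p 9.55e-04) and -0.56 on zinc (DESeq2 adjusted p 3.00e-11), both under the fold threshold. Of 13 nuclear regulators of the liver, *Nr3c1* among them, 2 were called between water-Dex and water-PBS and 1 between zinc-Dex and zinc-PBS, with list medians of 0.16 and 0.03, where 9.68% of all genes tested were called in either comparison. *Rora*, a nuclear receptor of the clock that is also known to regulate *Sult1e1*, rose from 861 to 1843 normalized counts on plain water (log2 1.10, DESeq2 adjusted p 9.59e-15) and by a log2 of 0.93 on zinc. *Nfe2l2*, the regulator of the oxidative stress response, fell from 867 to 427 (log2 -1.02, DESeq2 adjusted p 1.17e-12), and its log2 difference on zinc, -0.71, was under the fold threshold. The count on zinc became 2 without zinc-PBS replicate 1 or without zinc-Dex replicate 1.

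*Fam107a* was set beside other genes of the actin cytoskeleton, among them its paralogue *Fam107b*. Of 20 such genes, 2 rose in each Dex comparison and 0 fell, with list medians of 0.10 and 0.11. Of all genes tested, 4.89% were called higher on plain water and 5.0% on zinc. The 2 actin genes were *Limk1*, a kinase that keeps actin filaments from being severed (log2 1.24 and 1.31), and *Actb*, the beta actin gene (log2 0.98 and 1.08). *Actb* went from 3742 to 7399 normalized counts on plain water. Between zinc-Dex and water-Dex, where 0.469% of all genes tested were called, 1 gene of the list was called, *Actg1*. It was named after its values were seen. It was higher by a log2 of 0.91 (DESeq2 adjusted p 2.43e-04), at 467, 282 and 408 normalized counts in zinc-Dex against 204, 178 and 234 in water-Dex.

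*Sult1e1* belongs to a family of cytosolic sulphotransferases that share the sulphate donor PAPS, which is made by the products of *Papss1* and *Papss2*. Of 27 other genes of sulphation listed, 26 were matched to the table, 24 had a count and 20 were tested in each Dex comparison. Of these, 1 was higher and 0 lower in water-Dex than in water-PBS, with a list median of -0.02, where 4.89% of all genes tested were higher. *Sult1d1*, the sulphotransferase for catecholamines in mice, was that gene. It was at 2041, 2485 and 3054 normalized counts in water-PBS and at 6401, 5715 and 6009 in water-Dex (log2 1.26, SE 0.173, DESeq2 adjusted p 1.35e-11). *Sult1d1* was also called on zinc (log2 1.22) and in all 18 alternative fits of either comparison.

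On zinc, where 5.0% of all genes tested were higher after Dex, 3 sulphation genes were higher and 0 lower, with a list median of 0.23. Besides *Sult1d1* they were *Sult2a3* and *Sult2a7*, sulphotransferases of the hydroxysteroid family. *Sult2a3* was at 311, 25.6 and 204 normalized counts in zinc-Dex against 34.3, 61.2 and 27.2 in zinc-PBS, so that the groups overlapped (log2 2.14, SE 0.799, DESeq2 adjusted p 0.0396). It was called in 8 of 18 alternative fits. *Sult2a7* was at 81.5, 52.2 and 49.98 in zinc-Dex against 19.9, 45.5 and 27.2 in zinc-PBS (log2 0.99, DESeq2 adjusted p 0.0299, called in 15 of 18). The *Sult2a* genes are near-identical copies, and counting without multimapping reads makes their levels uncertain. When zinc-PBS replicate 1 or replicate 3 was left out, *Sult1d1* was the single one called, and the count was 5 when zinc-Dex replicate 2 was left out.

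Zinc-Dex replicate 1 was the highest and replicate 2 the lowest of the zinc-Dex mice for *Sult1e1*, *Sult1d1* and *Sult2a3*. *Sult1d1* was at 8952 and 5722 normalized counts in these 2 mice. For *Sult2a7* replicate 3 was the lowest, and for *Sult3a2* replicate 2 was the highest. The order was not particular to sulphation. Replicate 1 was also the highest zinc-Dex mouse for *Tat*, at 84030, 69700 and 65080, and the lowest for *Dusp1*, at 816, 1190 and 1577. The mean log2 level of the 18 glucocorticoid targets was 12.1, 12.0 and 12.0 in the 3 zinc-Dex mice and 11.8, 11.9 and 11.9 in the water-Dex mice. Between zinc-Dex and water-Dex, where 0.469% of all genes tested were called, 2 sulphation genes were called, both lower. Both were named after their values were seen. *Sult5a1* was at 103, 86.6 and 88.4 against 208, 178 and 175 (log2 -1.01, DESeq2 adjusted p 0.00299). *Sult3a2* was at 19.6, 53.3 and 19.2 against 66.0, 120 and 57.4 (log2 -1.41, DESeq2 adjusted p 0.0396) and was called in 12 of 16 alternative fits.

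**Figure D4:**
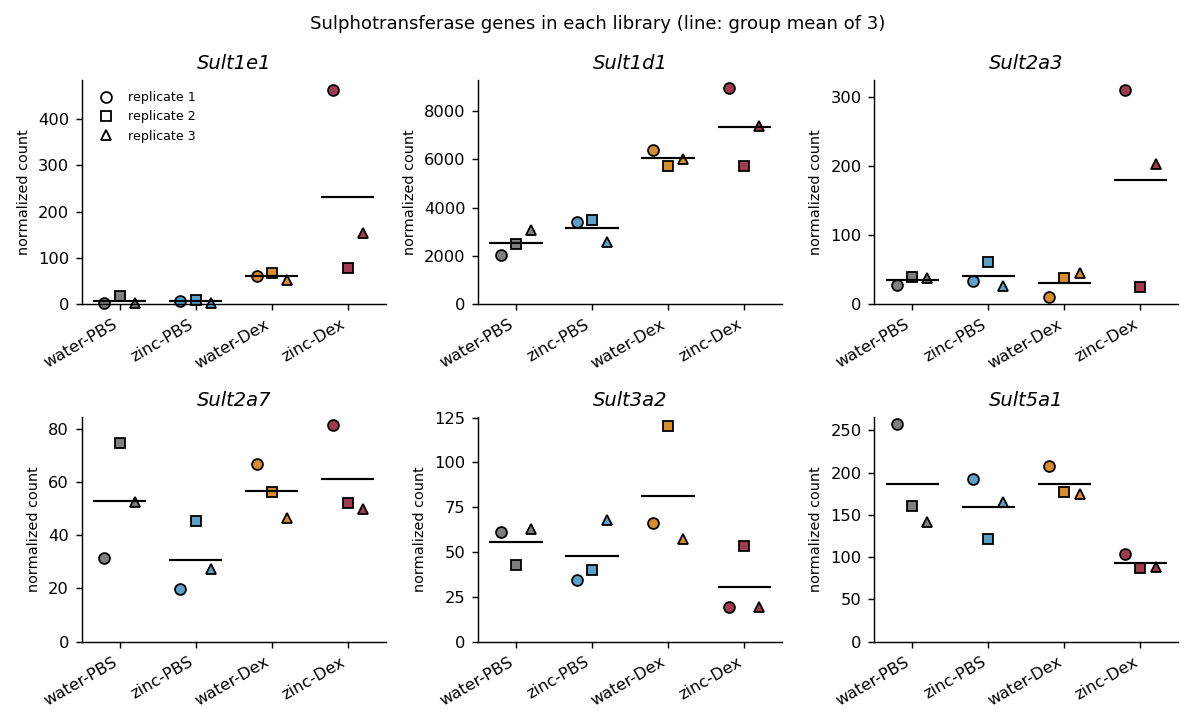
Normalized counts, on linear axes from 0, of *Sult1e1* and 5 other sulphotransferase genes in each library, with replicates 1 to 3 as circles, squares and triangles and a line at each group mean. In zinc-Dex the circle is at the top for *Sult1e1* (462), *Sult1d1* (8952) and *Sult2a3* (311), and the square is the lowest of the 3 for each of them. For *Sult2a7* the triangle is the lowest, and for *Sult3a2* the square is at the top.

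The genes next to the members were examined because a gene that rises can do so alone or with its surroundings. Within 250 kb of a member lie 63 other genes of the table, of which 37 had a count and 30 were tested. Between water-Dex and water-PBS 3 were higher and 3 lower, where 4.89% and 4.79% of all genes tested were. Between zinc-Dex and zinc-PBS 2 were higher and 3 lower, where 5.0% and 4.68% of all genes tested were. The list medians were 0.08 and 0.04, against -0.01 over all genes tested in each. The count of 6 on plain water fell to 2 when water-PBS replicate 2 or water-Dex replicate 3 was left out, and to 3 when water-Dex replicate 2 was. The count of 5 on zinc was 3 without zinc-PBS replicate 2 and 2 without zinc-Dex replicate 1.

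Around *Fam107a* 7 genes were tested and 0 were called in either comparison. The nearest genes were *Acox2*, 36921 bp away, and *Oit1*. *Acox2*, a peroxisomal oxidase of bile acid synthesis, was at 1865, 2086 and 1995 normalized counts in water-PBS and 2368, 2561 and 2332 in water-Dex, above the controls in each mouse but under the fold threshold. *Oit1* had at most 1.75 normalized counts in any library. 

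Around *Gm19439* 15 genes were tested. *Gpatch4*, on the same strand and 9958 bp beyond its 3' end, was at 96.6, 73.7 and 118 normalized counts in water-PBS and 157, 164 and 194 in water-Dex (log2 0.85, SE 0.200, DESeq2 adjusted p 2.38e-04). On zinc its log2 difference of 0.60 was under the fold threshold. *Pear1*, a platelet and endothelial receptor 206572 bp away, rose by a log2 of 0.90 on plain water and 0.97 on zinc. *Iqgap3*, a scaffold protein of dividing cells, was called lower on zinc (log2 -2.29, DESeq2 adjusted p 0.0249) at 12.6, 6.99 and 10.9 normalized counts in zinc-PBS and 0, 2.22 and 3.85 in zinc-Dex, in 13 of 18 alternative fits. The nearest gene, *Hapln2*, lies 3295 bp away on the opposite strand and had at most 1 count in any library.

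Around *Sult1e1* 8 genes were tested. *Sult1d1* lies 6942 bp away on the same strand and was described above. *Sult1b1*, a further sulphotransferase 37774 bp away, was not called, at means of 406 normalized counts in water-PBS and 354 in water-Dex. *Mir3969*, 4308 bp away on the other side, had 0 counts in every library. The pseudogenes *Gm7652* and *Gm21049* and the unclassified *Gm42796*, between 196049 and 219048 bp away, were lower in water-Dex, at low levels. *Gm7652* went from a mean of 17.8 to 5.40 (log2 -1.73), *Gm21049* from 26.5 to 8.18 (log2 -1.70) and *Gm42796* from 12.9 to 2.36 (log2 -2.46). They were called in 14, 15 and 10 of 18 alternative fits.

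**Figure D5:**
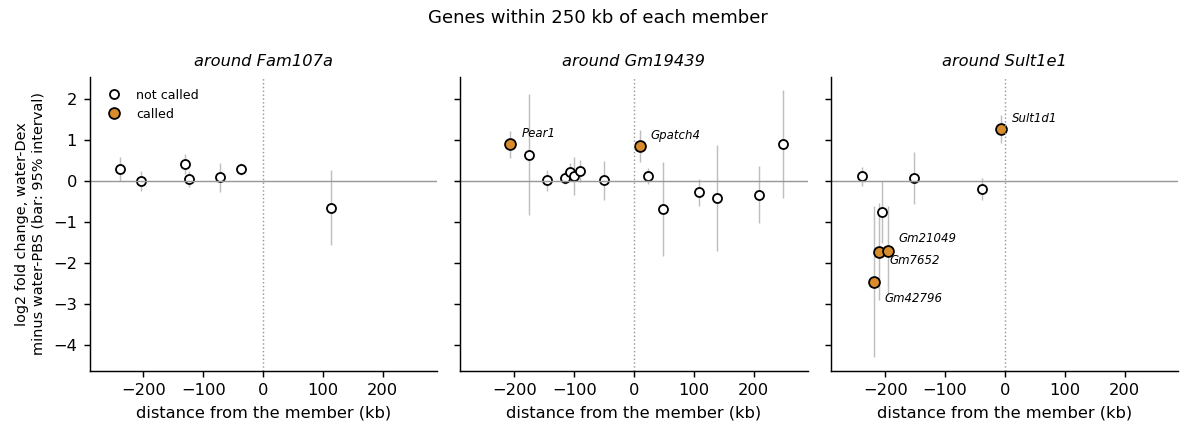
Log2 difference between water-Dex and water-PBS of the genes tested within 250 kb of each member, by distance from the member in kilobases, with bars for the 95% interval and filled points for called genes. No gene around *Fam107a* is called, *Gpatch4* and *Pear1* are called higher around *Gm19439*, and *Sult1d1* is called higher next to *Sult1e1*.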

How the data were processed

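RNA of 12 livers was sequenced. The authors mapped the reads with HISAT2 2.0.4 to mouse mm10 and made counts per gene with featureCounts, leaving out multimapping reads. The deposited counts are raw, with no scaling. The annotation release and strand setting are not given in the sources used here. Gene symbols and positions came from GENCODE M21, which matched 54809 of 54838 identifiers. All libraries entered 1 fit with DESeq2 1.42.0 (Wald test, unshrunken, Benjamini-Hochberg adjustment), after the study's methods. Alternatives were edgeR 4.0.16, TMM factors, a filter of 10 counts in 3 libraries, a replicate block, only the 6 libraries compared, no filtering by DESeq2, no fold threshold and each library left out. The scripts recovered known changes in simulated counts of genes well above the floor. Steps as large as those of *Fam107a* and *Gm19439*, from counts near the floor, were not simulated. The members and gene lists were chosen with earlier results of these data known. The text names the members, genes called in either Dex comparison (at most 6 per list, by size), called and nearest neighbours, the 5 most similar genes of each member, and genes with the same pattern. Some further listed genes are named outside this rule, among them *Zbtb16*, *Angptl4* and *Klf9*. Total counts of 9091152 to 12303527 per library set the counting error. Squared differences between replicates of a group were 6.20 to 20.7 times those of counting error alone (chi-square per degree of freedom). The highest value, 20.7, was between zinc-Dex replicates 1 and 2, and the next, 17.2, between water-PBS replicates 1 and 3.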

Additional observations from a re-analysis of the deposited data

Results flagged for a closer look

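On the log2 scale, the Dex effect on *Mt2* differed with the drinking water by an interaction term of DESeq2. The log2 Dex effect was 6.42 on plain water and 1.73 on zinc, a difference of -4.69 (SE 0.512, DESeq2 adjusted p 6.71e-16). *Mt2* was at 27.8 ± 15.6 normalized counts in water-PBS and 1169 ± 406 in zinc-PBS, the mice given no Dex. It was at 2397 ± 145 in water-Dex and 3872 ± 373 in zinc-Dex (SD, n = 3). The paper's list of zinc-responsive liver genes gives higher *Mt2* levels without Dex, on plain water and on zinc. The reason for that was not tested. Of the genes on the 4 pathway lists, *Mt2* was the single one for which the interaction of zinc and Dex was called.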

How the results depend on the processing

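The members' differences between zinc-Dex and water-Dex stayed on the same side of the threshold in every alternative that gave an adjusted p. Leaving out 1 library in turn changed the sign of 3 log2 differences. *Fam107a* between zinc-Dex and water-Dex ranged from -0.185 to 0.0101, *Gm19439* from -0.0439 to 0.151, and *Sult1e1* between zinc-PBS and water-PBS from -0.692 to 1.02. Leaving out 1 library in turn gave 26 to 101 genes called between zinc-Dex and water-Dex (60 in all) and 11 to 38 between zinc-PBS and water-PBS (17 in all). It gave 2 to 6 neighbours on plain water and 2 to 5 on zinc, 1 to 5 sulphation genes on zinc, and 1 to 2 regulators on zinc. With edgeR these totals of all genes were 21 and 9. With only the 6 libraries compared, 3 neighbours were called on zinc. Without a fold threshold 3067 genes were called between water-Dex and water-PBS and 3145 between zinc-Dex and zinc-PBS, with 173 and 42 for zinc. The lists then had 3 and 7 sulphation genes, 7 and 7 regulators, 5 and 6 actin genes and 9 neighbours on zinc. The construction of this alternative, fewer conditions for a call, shows the cause of the rise. Other causes were not tested. Scaled by library total, the level in zinc-Dex was 699 for *Fam107a* and 188 for *Gm19439*.

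Replicate numbers did not pair the libraries: over the 1000 most variable genes, deviations from the group means had an r over 0.1 in 3 of 18 same-numbered pairs (-0.24 to 0.25). With a replicate block, *Sult1e1* differed by a log2 of 1.90 between zinc-Dex and water-Dex (DESeq2 adjusted p 0.355), and 49 genes were called there, with 1256 and 1387 in the Dex comparisons. At these depths, the PBS levels of 0 to 5 counts per library limit every ratio of *Fam107a* and *Gm19439*.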
